A study of Mus musculus with 9 samples.

Results

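The adenylyl cyclases, which make cyclic AMP, and the cyclic nucleotide phosphodiesterases, which break down cyclic AMP and cyclic GMP, were followed in NIH-CAR cells that had been given a form of the nuclear receptor PPARγ. The genes were taken by symbol where a single-gene probe set measured them. These were every Adcy gene, and every Pde gene numbered 1 to 11 with no further letter or one from a to d. Pde6g and Pde6h carry other letters and were listed instead with the partners of phosphodiesterases. The rule gave 31 of the 18193 genes on the arrays, 10 of them cyclases and 21 phosphodiesterases. Within that set Adcy6 and Pde1b were chosen by their measured differences in these same comparisons, so their values are a description and carry no test. The line NIH-CAR was cloned from mouse NIH-3T3 fibroblasts made to express the coxsackie-adenovirus receptor (CARΔ1), through which adenovirus enters, and all arrays come from that 1 line at passage 12. One group received adenovirus for HA-tagged PPARγ without its A/B-domain (AdHA-PPARgCDE) and then 1 µM rosiglitazone, an agonist that activates the receptor. Another received adenovirus for HA-tagged full-length PPARγ2 (AdHA-PPARg2) and then 1 µM rosiglitazone. The third received adenovirus with an empty vector (AdEmpty) and the vehicle DMSO. Each group had 3 arrays, and all cells were exposed to virus for 2 h. Receptor and agonist changed together, so they cannot be told apart in a comparison with empty vector.

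Cyclic AMP is an intracellular messenger that membrane adenylyl cyclases make when stimulatory G proteins activate them, and protein kinase A is its main effector. Phosphodiesterases end the signal, and their families differ in whether they take cyclic AMP, cyclic GMP or both, and in what activates them. In adipocytes, the cells whose differentiation PPARγ2 directs, cyclic AMP drives the release of fatty acids from stored fat, and insulin opposes this in part through a phosphodiesterase, Pde3b. In preadipocytes a rise in cyclic AMP is a standard part of the cocktail that starts differentiation.

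All levels and differences are log2 values, so a difference of 1 is a doubling on the linear scale. Levels of different genes come from different probe sets and are not compared with each other. A gene was called when its adjusted p from limma, corrected by Benjamini-Hochberg over all 18193 genes, was under 0.05. The labels name numbered replicates and 3 individual experiments but do not give separate cultures for each array, so p-values measure the spread between these arrays. Pparg read 10.74, 12.01 and 11.26 for the deleted receptor, 10.70, 12.22 and 10.84 for the full-length receptor, and 7.01, 6.99 and 7.17 for empty vector, so every receptor array lay above every empty-vector array. All 8 fibroblast markers lay above the upper quartile of probe sets on all 9 arrays. The mean of 6 adipocyte markers was 7.26 to 7.82 with the deleted receptor, 8.15 to 8.53 with the full-length receptor and 5.77 to 6.21 with empty vector, with Adipoq and Lep below the median of all probe sets on all 9 arrays, and its part in the results was not tested. Of these 6, Fabp4 (6.54 and 7.60 above empty vector with the deleted and the full-length receptor), Lpl (2.54 and 3.86) and Cidec (0.55 and 2.51) were higher, while Adipoq (0.03 and 0.22), Lep (0.00 and -0.21) and Retn (-0.09 and 0.10) had overlapping groups. Of the adipocyte, muscle, leukocyte, epithelial and endothelial markers, 1 lay above the upper quartile on all 9 arrays, the muscle marker Acta1. The arrays numbered 3 stood apart in their 18S ribosomal RNA controls, which averaged 8.06, 7.59 and 8.67 with the deleted receptor, the full-length receptor and empty vector, against 10.51 to 12.44 on the other 6. Their part in the results was not tested except by leaving these 3 arrays out.

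Adcy6, a cyclase that calcium inhibits and stimulatory G proteins activate, was higher with either receptor. Its levels were 8.89, 9.15 and 8.79 for the deleted receptor, 9.49, 9.65 and 9.39 for the full-length receptor, and 8.22, 8.59 and 8.45 for empty vector. The groups did not overlap: every full-length array read above every deleted-receptor array, and these read above every empty-vector array. Against empty vector the difference was 0.52 (SE 0.14, 1.44-fold) with the deleted receptor and 1.09 (SE 0.14, 2.13-fold) with the full-length receptor. The deleted receptor gave 48.1% of the full-length difference on the log2 scale, and the difference between the receptors was -0.56 (SE 0.14). Both differences from empty vector use the same 3 empty-vector arrays. Adcy6 has 1 probe set here, so no other probe set bears on it.

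Pde1b, a phosphodiesterase that calcium and calmodulin activate and that takes both cyclic AMP and cyclic GMP, showed the same order. Its levels were 7.70, 7.82 and 7.85 for the deleted receptor, 8.25, 8.33 and 8.47 for the full-length receptor, and 6.50, 6.71 and 6.60 for empty vector. No array of one group reached into another, and the spread within groups was small, with SDs of 0.08, 0.11 and 0.11. Against empty vector the difference was 1.19 (SE 0.11, 2.28-fold) with the deleted receptor and 1.75 (SE 0.11, 3.36-fold) with the full-length receptor, so that the deleted receptor gave 68.0% of the full-length difference on the log2 scale. Between the receptors the difference was -0.56 (SE 0.11). Pde1b too has 1 probe set. Its empty-vector levels lay below the median of all probe sets on those arrays (6.88, 6.84 and 6.68). The folds and the 68.0% share therefore start from a dim level, whose part in them was not tested.

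With the arrays numbered 3 left out, the Adcy6 differences were 0.62 and 1.16 and the Pde1b differences 1.16 and 1.69, for the deleted and the full-length receptor against empty vector. The order of groups seen in both genes, with no overlap at either step and the full-length receptor highest, occurred in 81 of all 18193 genes (0.445%). Both genes were chosen on these same contrasts, so nothing is read from their place among the 81.

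**Figure D1:**
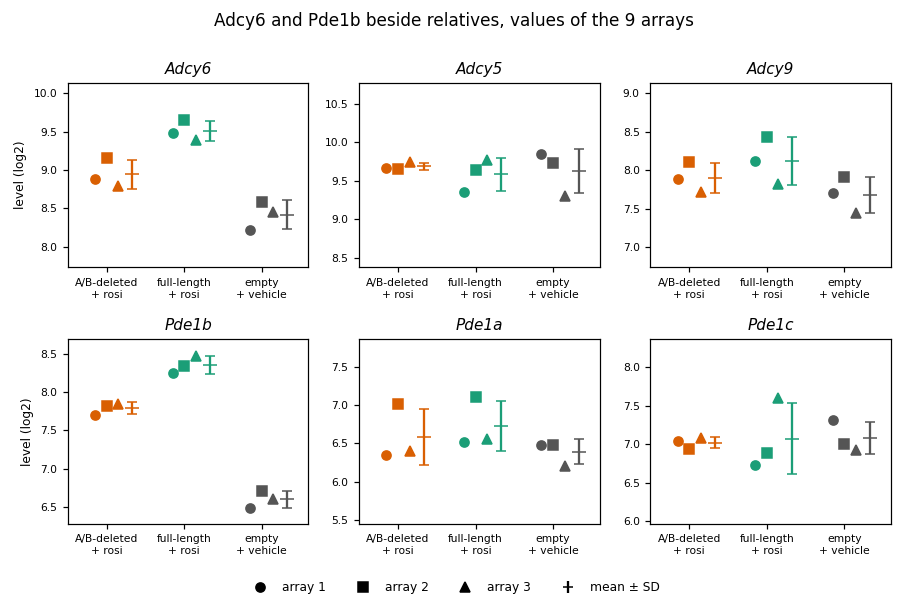
Levels (log2) of Adcy6 and Pde1b and of 4 relatives on the 9 arrays, with A/B-deleted receptor and rosiglitazone left, full-length receptor and rosiglitazone in the middle and empty vector with vehicle right. Each point is an array, its shape the array number, and each bar the mean ± SD of 3 arrays. All panels span the same range, and the groups are separate in Adcy6 and Pde1b and overlap in the other 4 genes except for Pde1a, where the full-length arrays lie above the empty-vector arrays.

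Pde1b lies on mouse chromosome 15. RefSeq (GRCm38.p6) gives it 3 start sites. The windows from 250 bases before to 50 bases after the first and the second are shown. Pde1b had the largest difference among the 31 genes, and each of these windows holds the letters of a common promoter motif. Capitals mark the letters of the GC box (GGGCGG, either strand) and of the TATA box (TATAAA, either strand). Both windows read along the plus strand.
Pde1b start site 1, chr15:103502784-103503083: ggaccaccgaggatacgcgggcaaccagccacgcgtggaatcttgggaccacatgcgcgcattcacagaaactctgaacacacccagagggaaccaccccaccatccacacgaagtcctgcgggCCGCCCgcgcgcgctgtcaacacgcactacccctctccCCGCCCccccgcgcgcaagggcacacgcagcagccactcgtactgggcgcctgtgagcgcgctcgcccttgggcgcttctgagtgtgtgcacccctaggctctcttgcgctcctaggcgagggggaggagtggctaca
Pde1b start site 2, chr15:103506876-103507175: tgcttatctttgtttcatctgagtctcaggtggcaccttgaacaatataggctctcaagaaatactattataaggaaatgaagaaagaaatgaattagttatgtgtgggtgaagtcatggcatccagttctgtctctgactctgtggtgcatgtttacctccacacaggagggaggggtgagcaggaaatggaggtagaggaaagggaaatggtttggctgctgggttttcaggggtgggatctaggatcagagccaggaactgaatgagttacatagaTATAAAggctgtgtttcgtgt
The first window is rich in G and C (67%, with 28 CG pairs), holds 2 GC boxes, the first beginning 126 bases before the start, and has no TATA box. The second has 44% G and C and 1 CG pair, and its TATA letters begin 29 bases after the start, within the transcribed part. The third window, chr15:103514727-103515026, has 51% G and C and neither motif. The core letters that nuclear receptors such as PPARγ bind, AGGTCA on either strand, are in none of the 3 windows, nor is their direct repeat with 1 base between (DR1). AGGTCA is in 16.3% of 32851 RefSeq promoter windows of the same length and in 5 of 47 windows of the 23 genes of the set that have one, those of Adcy1, Adcy7, Pde1a, Pde4b and Pde8a. The direct repeat, which contains AGGTCA, is in 0.0396% of all windows and in none of the 47. The full cyclic AMP response element TGACGTCA is in 1.79% of all windows and in none of the 47. For Adcy6 and 7 other genes of the set no window was used.

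Without a block, the other 9 cyclases did not pass the test in any of the 3 comparisons. With the replicate number as a block, Adcy9 passed for the full-length receptor against empty vector (limma adjusted p = 0.0317). Of the 31 genes, 1 was called for the deleted receptor against empty vector (Pde1b), where 0.17% of all genes were called, or 0.912% with the replicate number as a block, which left Pde1b the 1 call. For the full-length receptor against empty vector 2 were called (Adcy6 and Pde1b), where 0.654% of all genes were called. With the block 5 were called, these 2 with Adcy9, Pde4b and Pde8b, where 3.63% of all genes were called. The F test over the 3 groups called Adcy6 and Pde1b, and 0.418% of all genes. Because both genes were singled out on these contrasts, nothing is read from these counts. Without full-length replicate 2 the full-length difference of Adcy6 was 1.02 and no longer called, which left 1 gene. In the F test Adcy6 was not called without any 1 of full-length replicates 1 and 2, the 3 empty-vector arrays and deleted-receptor replicate 1, nor without the arrays numbered 3 or after each array's median was subtracted.

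Between the receptors 0 of 18193 genes (0%) were called by limma, with or without the block. At an unadjusted p under 0.05 there were 277 genes (1.52%), among them 3 of the set, Adcy6, Pde1b and Pde4d. With the block there were 786 genes (4.32%), among them 6 of the set, these 3 with Adcy9, Pde4b and Pde8b. A missed threshold does not show that the receptors act alike on a gene. SEs and intervals, unless said otherwise, are those of limma without the block, and the block changes them. For the deleted receptor against empty vector it took the SE of Adcy9 from 0.19 to 0.07 and of Adcy1 from 0.25 to 0.08. It took that of Pde6b from 0.34 to 0.39. Intervals are 95% intervals of limma for 1 gene and are not widened for the number of genes.

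Adcy5 is the closest relative of Adcy6, the other cyclase that calcium inhibits. It read 9.66, 9.66 and 9.74 for the deleted receptor, 9.35, 9.63 and 9.77 for the full-length receptor, and 9.85, 9.74 and 9.30 for empty vector. All 3 groups overlapped. The difference from empty vector was 0.06 (interval -0.31 to 0.43) with the deleted receptor and -0.04 (interval -0.41 to 0.32) with the full-length receptor. A doubling of this probe set's signal lies outside both intervals. Its probe set is of a type that can also bind other transcripts, and over all 4 Adcy5 probe sets the full-length difference ran from -0.09 to 0.09.

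Adcy9, a widely expressed cyclase that responds poorly to forskolin, had the largest difference among the relatives of Adcy6. It read 7.88, 8.10 and 7.71 for the deleted receptor, 8.11, 8.44 and 7.82 for the full-length receptor, and 7.70, 7.91 and 7.44 for empty vector. The arrays numbered 2 were the highest of their group in all 3 groups, and the groups overlapped. The deleted-receptor difference was 0.22 (interval -0.21 to 0.64). The full-length difference was 0.44 (SE 0.19, interval 0.02 to 0.86), with an adjusted p of 0.763 from limma and 0.0317 with the block. All 4 of its probe sets were above empty vector with the full-length receptor, by 0.25 to 0.44.

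Adcy1, a cyclase that calcium and calmodulin stimulate, read 7.52, 7.94 and 7.20 for the deleted receptor, 7.51, 7.79 and 7.09 for the full-length receptor, and 7.71, 8.21 and 7.57 for empty vector. The groups overlapped, with differences from empty vector of -0.28 (interval -0.84 to 0.28) and -0.37 (interval -0.92 to 0.19). Adcy7, which G protein βγ subunits can boost, read 6.22, 5.57 and 6.09 for the deleted receptor, 5.95, 6.16 and 6.95 for the full-length receptor, and 6.37, 6.29 and 5.93 for empty vector. Its difference between the receptors, -0.39 (interval -1.0 to 0.21), had full-length array 3 as the highest and deleted-receptor array 2 as the lowest, and its 3 probe sets disagreed, from -0.39 to 0.31. Adcy4, of the same βγ-responsive class, read 6.69, 6.65 and 6.57 for the deleted receptor, against 6.91, 6.84 and 6.98 for the full-length receptor, and 6.76, 7.15 and 6.62 for empty vector. The 2 receptor groups did not overlap, and their difference was -0.27 (interval -0.59 to 0.05).

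The remaining 4 cyclases were Adcy2, Adcy3, Adcy8 and the soluble, bicarbonate-activated Adcy10. Their differences ran from -0.10 (Adcy3) to 0.11 (Adcy10) for the deleted receptor and from -0.11 (Adcy3) to 0.07 (Adcy2) for the full-length receptor against empty vector. No interval of these 4 reached beyond -0.43 or 0.48. The median difference of the 9 cyclases other than Adcy6 was 0.04 for the deleted and 0.03 for the full-length receptor, against -0.03 and 0.00 over all genes.

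**Figure D2:**
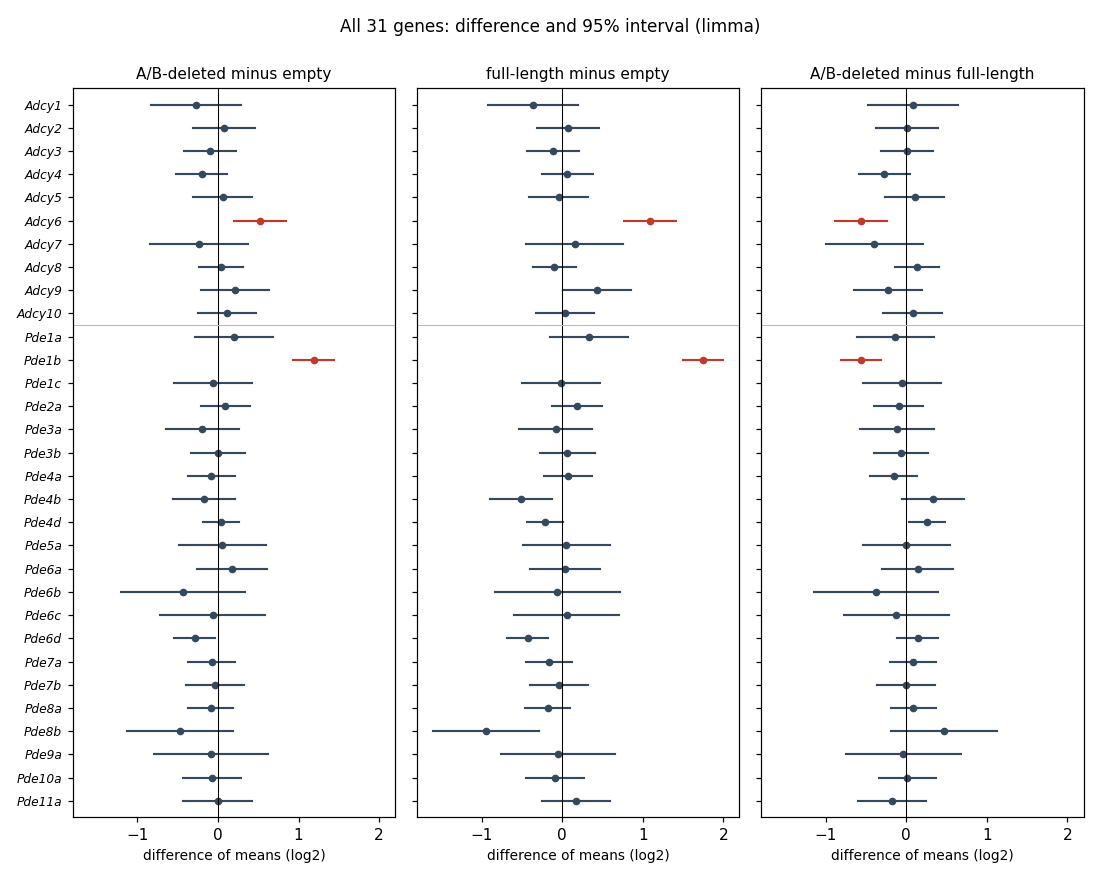
Differences of group means (log2) with 95% intervals from limma for all 31 genes, cyclases above and phosphodiesterases below the grey line, for the deleted receptor against empty vector (left), the full-length receptor against empty vector (middle) and the deleted against the full-length receptor (right). Adcy6 and Pde1b, in red, were singled out on these values and stand at 0.52 and 1.19 (left), 1.09 and 1.75 (middle) and -0.56 and -0.56 (right).

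Pde1a and Pde1c share with Pde1b the activation by calcium and calmodulin. Pde1a read 6.35, 7.01 and 6.41 for the deleted receptor, 6.52, 7.10 and 6.55 for the full-length receptor, and 6.48, 6.49 and 6.21 for empty vector. Every full-length array lay above the empty-vector arrays, but the lowest only by a little, and both receptor groups had a high array 2. The full-length difference was 0.33 (interval -0.15 to 0.81, adjusted p = 1.00), and the other of the 2 Pde1a probe sets gave 0.02. Pde1c read 7.04, 6.94 and 7.08 for the deleted receptor, 6.73, 6.88 and 7.60 for the full-length receptor, and 7.32, 7.0 and 6.92 for empty vector. Its groups overlapped, with differences from empty vector of -0.06 (interval -0.54 to 0.42) and -0.01 (interval -0.49 to 0.47), and its 6 probe sets ran from -0.22 to 0.36 with the full-length receptor.

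Among phosphodiesterases of families 4 and 8, which take cyclic AMP, the largest differences from empty vector were downward and none was called by limma without a block. With the block limma called Pde4b (adjusted p = 0.0236) and Pde8b (adjusted p = 0.048) for the full-length receptor. The adjusted p-values below are without the block. Pde4b read 9.32, 9.02 and 9.17 for the deleted receptor, 9.08, 8.60 and 8.83 for the full-length receptor, and 9.55, 9.05 and 9.44 for empty vector. The full-length group was lowest but its highest array overlapped with empty vector. The deleted-receptor difference was -0.18 (interval -0.56 to 0.21) and the full-length difference -0.51 (SE 0.17, adjusted p = 0.457, interval -0.90 to -0.13). Of the other 5 Pde4b probe sets, a dim one gave 0.95 for the deleted receptor against empty vector. The full-length difference of all 6 ran from -0.51 to 0.12, so the probe sets differed in size. It was downward in all but a dim one, of mean level 4.64.

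Pde4d, a close relative, read 8.23, 8.22 and 8.13 for the deleted receptor, 7.91, 7.99 and 7.92 for the full-length receptor, and 8.25, 8.10 and 8.12 for empty vector. The full-length arrays lay below all 6 others, by a small amount. The deleted receptor was above the full-length receptor by 0.25 (SE 0.10, adjusted p = 1.00, interval 0.03 to 0.47), and the full-length receptor was at -0.22 (adjusted p = 0.842) from empty vector. Its pooled SD within groups, 0.06, was the smallest of the 31 genes. The other of its 2 probe sets gave -0.06 and -0.07 for these differences.

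Pde8b, a cyclic AMP phosphodiesterase of high affinity, read 6.34, 6.03 and 6.83 for the deleted receptor, 6.14, 5.71 and 5.94 for the full-length receptor, and 6.92, 6.27 and 7.42 for empty vector. The full-length arrays lay below the empty-vector arrays, and the deleted-receptor arrays overlapped with both. The difference from empty vector was -0.47 (interval -1.13 to 0.19) with the deleted receptor and -0.94 (SE 0.29, adjusted p = 0.375, interval -1.60 to -0.28) with the full-length receptor. Its 2 probe sets gave alike values, -0.47 and -0.69 for the deleted receptor, and -0.94 and -0.96 for the full-length receptor. The SD among empty-vector arrays was 0.58, so the error of these differences is large.

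Pde6d carries the name of a phosphodiesterase subunit of photoreceptors but acts in other cells as a carrier of prenylated proteins. It read 8.45, 8.29 and 8.34 for the deleted receptor, 8.39, 8.12 and 8.15 for the full-length receptor, and 8.59, 8.65 and 8.70 for empty vector. Every array of either receptor lay below every empty-vector array. The differences were -0.29 (SE 0.11, adjusted p = 1.00) and -0.43 (SE 0.11, adjusted p = 0.221), neither called. Pde6b, a catalytic subunit of rod photoreceptors, read 5.83, 5.47 and 5.49 for the deleted receptor, 5.50, 5.76 and 6.66 for the full-length receptor, and 6.69, 5.88 and 5.52 for empty vector. It lay below the median of all probe sets on all 9 arrays, and its difference of -0.43 with the deleted receptor has an interval of -1.20 to 0.34.

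**Figure D3:**
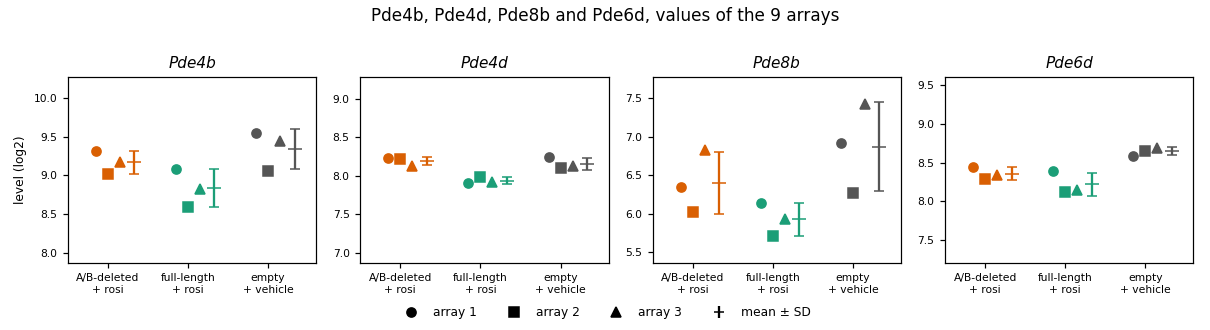
Levels (log2) of Pde4b, Pde4d, Pde8b and Pde6d on the 9 arrays, with the A/B-deleted receptor left, the full-length receptor in the middle and empty vector right. Each point is an array and each bar the mean ± SD of 3 arrays. In Pde4d the full-length arrays lie below all others, in Pde6d all receptor arrays lie below the empty-vector arrays, and Pde8b spreads most, with an SD of 0.58 in empty vector.

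None of the remaining 13 phosphodiesterases was called. Their differences ran from -0.19 (Pde3a) to 0.18 (Pde6a) for the deleted receptor, and from -0.18 (Pde8a) to 0.18 (Pde2a) for the full-length receptor, against empty vector. Pde3b, the phosphodiesterase that insulin activates in adipocytes, was at 0.00 (interval -0.34 to 0.34) with the deleted receptor and 0.06 (interval -0.28 to 0.40) with the full-length receptor. Pde2a, which cyclic GMP stimulates, was at 0.09 (interval -0.22 to 0.39) and 0.18 (interval -0.12 to 0.49). Pde5a, which takes cyclic GMP, was at 0.05 (interval -0.49 to 0.59) and 0.05 (interval -0.49 to 0.59). Pde4a was the 1 gene of these 13 with separate receptor groups, lower by 0.16 with the deleted receptor (interval -0.45 to 0.14). Other probe sets of these genes went further, with full-length differences from -0.77 to 0.03 over 5 probe sets of Pde10a and from -0.54 to -0.01 over 7 of Pde7a. The widest intervals belonged to Pde6c and Pde9a and reached -0.80 and 0.71. The median over the 20 phosphodiesterases other than Pde1b was -0.07 with the deleted receptor and -0.04 with the full-length receptor, against -0.03 and 0.00 over all genes.

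Group separation without a test was seen in 3 of the 31 genes for the deleted receptor against empty vector (Adcy6, Pde1b and Pde6d), where 7.89% of all genes were separate. It was seen in 6 for the full-length receptor against empty vector (Adcy6, Pde1a, Pde1b, Pde4d, Pde6d and Pde8b), where the share of all genes was 9.38%. Between the receptors 5 were separate (Adcy4, Adcy6, Pde1b, Pde4a and Pde4d), where the share was 5.17%. With Adcy6 and Pde1b set aside these counts are 1, 4 and 3 of 29. The table carried no detection calls. Of the 31 genes, 14 read above the median of all probe sets on all 9 arrays and 7 below it on all 9, namely Adcy8, Adcy10, Pde5a, Pde6a, Pde6b, Pde7b and Pde9a, and for those 7 the arrays cannot tell a low level from none. The spread was like that of other genes, with a median pooled SD of 0.21 over the 31 genes, against 0.20 over all genes.

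**Figure D4:**
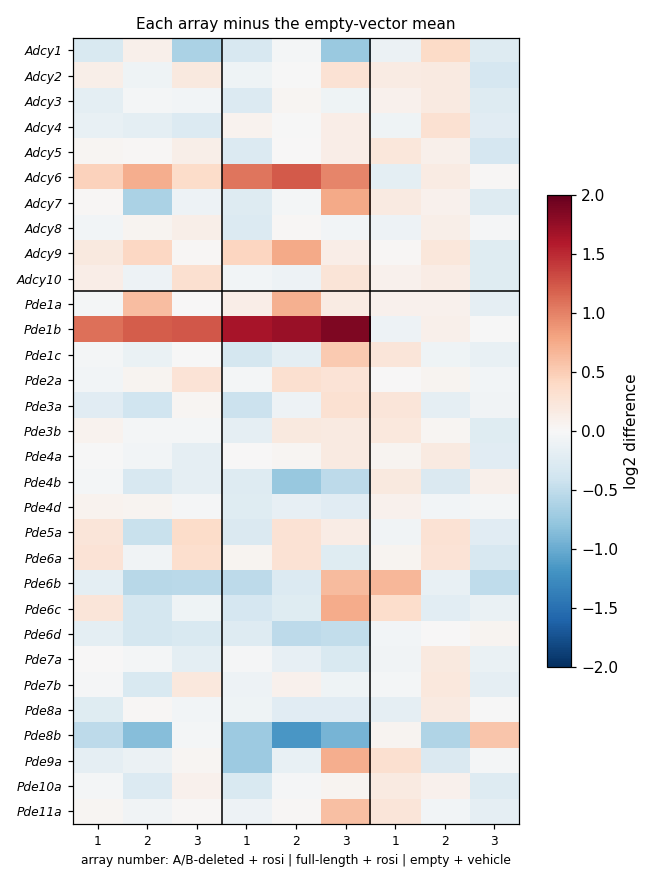
Each array's level minus the mean of the 3 empty-vector arrays of the same gene (log2, colour from -2 to 2), with genes down the page and arrays 1 to 3 of the deleted receptor, the full-length receptor and empty vector from left to right. The rows of Adcy6 and Pde1b are raised on all 6 receptor arrays, and the row of Pde8b is lowest on the full-length arrays.

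The genes around these enzymes were taken in 10 lists with 98 measured genes outside the set. The lists were made with earlier results known, in which Plin2, Btg2, Egr1 and Rgs2 were already called, so these are no independent evidence. For the deleted receptor against empty vector 1 of the 98 was called, as higher (Plin2), where 0.17% of all genes were called. In that comparison the same array numbers deviate together. With the number as a block 0.912% of all genes were called. Of the 98, 3 were then called as higher (Plin2, Btg2 and Npr2) and 3 as lower (Egr1, Rgs2 and Prkg2). For the full-length receptor against empty vector 0.654% of all genes were called. Of the 98, 4 were called as higher (Plin2, Btg2, Npr2 and Pkig) and 3 as lower (Egr1, Rgs2 and Ptger4). With the block 6 were called as higher and 7 as lower, where 3.63% of all genes were called. Between the receptors limma called 0 of the 98, with or without the block.

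Npr2, the receptor for C-type natriuretic peptide, makes cyclic GMP. It read 8.82, 8.90 and 9.08 for the deleted receptor, 9.10, 9.30 and 9.34 for the full-length receptor, and 8.26, 8.47 and 8.44 for empty vector, so the groups were separate in the order full-length, deleted, empty. The deleted-receptor difference was 0.55 (SE 0.12), with an adjusted p of 0.289 from limma and 0.0315 with the block. The full-length difference was 0.86 (SE 0.12), with an adjusted p of 0.0146 from limma and 0.0032 with the block. The full-length call was lost without full-length replicate 2 (adjusted p = 0.0938), empty-vector replicate 1 (0.0783) or empty-vector replicate 2 (0.0557), and with the arrays numbered 3 left out (0.0507). Npr2 has 1 probe set.

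Prkg2, a protein kinase that cyclic GMP activates, read 10.65, 10.35 and 10.51 for the deleted receptor, 10.71, 10.45 and 10.48 for the full-length receptor, and 11.18, 11.21 and 11.09 for empty vector. Both receptor groups lay below empty vector and overlapped with each other. The deleted-receptor difference was -0.66 (SE 0.12), with an adjusted p of 0.123 from limma and 0.0331 with the block. The full-length difference was -0.62, with an adjusted p of 0.069 from limma and 0.018 with the block. The full-length difference was called with the brighter genes only (0.0286), with the mean of probe sets (-0.72, 0.0237) and with a trend in the variance prior (0.0388). Its 3 probe sets ran from -0.68 to -0.65 and from -0.78 to -0.62. Over the 14 measured cyclic GMP genes the median difference was -0.01 with the deleted receptor and 0.03 with the full-length receptor. Of these 14, limma without the block called 1 with the full-length receptor and 13 not. Npr3, the natriuretic peptide clearance receptor, named after its values were seen, read 9.0, 9.20 and 9.33 for the deleted receptor, 9.24, 9.42 and 9.33 for the full-length receptor, and 7.78, 7.77 and 9.22 for empty vector. Empty-vector array 3 lay among the receptor arrays, and the differences, 0.92 and 1.07 (SE 0.33, adjusted p = 1.00 and 0.376), were called in both comparisons once that array or all arrays numbered 3 were left out.

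Pkig, an inhibitor of protein kinase A, read 9.49, 9.33 and 9.35 for the deleted receptor, 9.59, 9.60 and 9.47 for the full-length receptor, and 8.94, 8.84 and 8.98 for empty vector. All receptor arrays lay above all empty-vector arrays. The deleted-receptor difference was 0.47 (SE 0.10, adjusted p = 0.279), and the full-length difference was 0.63 (SE 0.10, adjusted p = 0.0278), with 0.69 from its other probe set. The full-length call was lost in 8 of the 9 fits that left out 1 array, all but the one without full-length replicate 3, with adjusted p up to 0.159, with the arrays numbered 3 left out (0.0557) and after median subtraction (0.0665). The other 8 protein kinase A subunits and inhibitors were not called with either receptor. The list's median was 0.07 with the deleted receptor and -0.02 with the full-length receptor.

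Ptger4, a prostaglandin E2 receptor that couples to the stimulatory G protein, read 8.98, 8.50 and 8.91 for the deleted receptor, 8.41, 7.82 and 7.93 for the full-length receptor, and 9.39, 9.16 and 9.16 for empty vector. The groups were separate, with the full-length receptor lowest. The deleted-receptor difference was -0.45 (SE 0.19, adjusted p = 1.00). The full-length difference was -1.18 (SE 0.19, adjusted p = 0.0238), and its 2 probe sets gave -1.18 and -1.14. Between the receptors the difference was 0.74 (SE 0.19, adjusted p = 1.00, interval 0.32 to 1.16). The full-length call was lost without full-length replicate 2 (adjusted p = 0.123), full-length replicate 3 (0.062), empty-vector replicate 1 (0.111), 2 (0.0982) or 3 (0.0642), and with the arrays numbered 3 left out (0.107). The other 6 measured receptors of that list were not called, and 8 listed receptors, the β-adrenergic ones among them, were not analysed here.

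**Figure D5:**
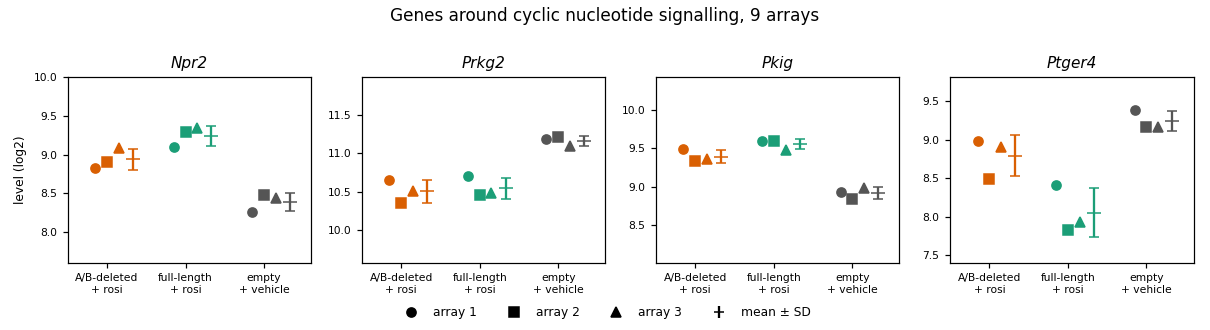
Levels (log2) of Npr2, Prkg2, Pkig and Ptger4 on the 9 arrays, with the A/B-deleted receptor left, the full-length receptor in the middle and empty vector right. Each point is an array and each bar the mean ± SD of 3 arrays. The receptor arrays lie above empty vector in Npr2 and Pkig and below it in Prkg2 and Ptger4.

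In the list of cyclic AMP and CREB target genes the median of 15 genes was -0.21 with the deleted receptor and -0.13 with the full-length receptor, against -0.03 and 0.00 over all genes. With the full-length receptor Btg2 (2.60, adjusted p = 0.0136), an antiproliferative gene, rose, and Egr1 (-1.82, adjusted p = 0.005), an immediate-early transcription factor gene, and Rgs2 (-1.72, adjusted p = 0.0138), whose product limits G protein signals, fell. The other 12 were not called without the block, and of these Junb (-0.79) and Per1 (-0.43) were called with it. The Btg2 call ended when full-length replicate 1 or 2 or any empty-vector array was left out (adjusted p from 0.0504 to 0.0794). That of Rgs2 ended without the first full-length array (0.0536), the second empty-vector array (0.0557) or all arrays numbered 3 (0.0525), and its 4 probe sets ran from -1.72 to 0.10.

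With the deleted receptor Btg2 (1.69), Egr1 (-1.31) and Rgs2 (-1.37) were not called by limma alone (adjusted p = 0.261, 0.0697 and 0.109), and were called with the block (adjusted p = 0.02, 0.0203 and 0.0179). With the arrays numbered 3 left out, Btg2 (0.007) and Egr1 (0.0294) were called too. In a fit of the compared arrays only, Npr2 (adjusted p = 0.0592), Pkig (0.124), Ptger4 (0.058) and Rgs2 (0.0592) were not called for the full-length receptor. In the list of lipolysis genes downstream of protein kinase A, 1 of 7 was called without the block, Plin2, a lipid droplet coat protein. It was higher by 2.87 and 3.04 (adjusted p = 0.0125 and 0.0044). The deleted-receptor call was lost without empty-vector replicate 1 (0.0733), empty-vector replicate 2 (0.0748) or deleted-receptor replicate 2 (0.0605). Pnpla2 (0.53 and 0.83) and Plin4 (0.57 and 0.88) also read higher on every receptor array than on any empty-vector array. With the block both were called for the full-length receptor. The means of Abhd5 (-0.32 and -0.18), Mgll (-0.06 and -0.06) and Plin5 (-0.22 and -0.29) were lower with either receptor than with empty vector. Lipe stood at -0.02 and 0.25. None of these genes was called with or without the block. Their groups overlapped with empty vector, except Plin5 with the deleted receptor.

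In the other 5 lists limma called 0 genes in any comparison without the block. With the block it called 1, Akap12 (-0.61), for the full-length receptor against empty vector. These 5 lists were the 7 G protein α subunits, the 15 A-kinase anchoring proteins, the 9 Epac and other cyclic AMP binding proteins, the 7 CREB family members and coactivators, and the 9 partners of phosphodiesterases. Their medians lay between -0.10 and -0.01 with the deleted receptor and between -0.04 and 0.02 with the full-length receptor.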

How the data were processed

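The authors deposited log2 values for 45101 probe sets on each of 9 Affymetrix arrays. Per the submitters' processing notes, RMA (R 2.5.0, package affy) made them. The base was inferred: raising 2 to each value gave hundredths, to a tolerance of 0.01 of a hundredth, in 99.858% or more of an array's values. Array medians ran from 6.68 to 6.90, so arrays were not exactly quantile-equal. Arrays have no read depth, and their number limits the precision. No genome was used, and promoter sequences come from RefSeq tables of GRCm38.p6.

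Gene names came from GEO's platform annotation, in which 34945 had 1 gene symbol, 932 several and 9160 none; the last 2 kinds and 64 control probe sets were left out. Each gene was represented by its probe set of highest average. limma 3.58.1 (R 4.3.3; lmFit, contrasts, eBayes, two-sided) was fitted to all 18193 genes and 9 arrays with 3 group means and no block. It was tested on simulated data with independent arrays, which do not cover the shared deviations of equal array numbers described below. Tables were made with Python 3.11.15 and pandas 2.3.3.

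Equal array numbers were checked for pairing by correlating, over all genes, how far each array lay from its group's mean. For deleted receptor and empty vector the correlations were 0.520 to 0.708, and for the receptors 0.297 to 0.531. For full-length receptor and empty vector they were -0.121, 0.631 and 0.255, of mixed sign. The same numbers serve all 3 groups, so these correlations do not settle whether a number marks a pair. Calls are therefore given without and with the block.

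The genes and lists were chosen with earlier results of these data known. Values on every array are given for Adcy6, Pde1b, Adcy5, Pde1a, Pde1c, genes of the set called in any fit with or without the block, and the 6 others with the largest differences. List genes were named if called with or without the block. Pde3b, Pde2a, Pde5a, Pde4a, Pde7a, Pde10a and Npr3 were named after their values were seen. Alternatives were the block, leaving out arrays, the compared arrays only, the brighter genes only, the mean of probe sets, median subtraction, quantile normalization and a trend in the variance prior.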

Additional observations from a re-analysis of the deposited data

How the results depend on the processing

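The 93 differences of the 31 genes were refitted under 17 alternatives, 1524 values in all. Of these, 1 lost a call, that of Adcy6 without full-length replicate 2, and 3 gained one with the replicate number as a block. The gains were Adcy9 (0.44, limma adjusted p = 0.0317), Pde4b (-0.51, adjusted p = 0.0236) and Pde8b (-0.94, adjusted p = 0.048). All were for the full-length receptor against empty vector, where equal array numbers correlated at -0.121, 0.631 and 0.255. Another 127 changed sign without a call in either fit, none larger than 0.39 in size in the fit reported. Adcy6 kept its sign under all alternatives run, between 0.42 and 0.62 with the deleted receptor and between 0.99 and 1.17 with the full-length receptor, as did Pde1b, between 1.13 and 1.24 and between 1.69 and 1.80. Both genes were chosen on these contrasts in the same arrays, so the kept signs are no test of them.

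With the replicate block, 5 genes of the set were called for the full-length receptor against empty vector, 13 list genes and 661 of all genes, and for the deleted receptor 6 list genes and 166 of all genes. The list genes added for the full-length receptor were Prkg2 (-0.62, adjusted p = 0.018), Akap12 (-0.61, 0.0148), Junb (-0.79, 0.0324), Per1 (-0.43, 0.0305), Pnpla2 (0.83, 0.0091) and Plin4 (0.88, 0.0216). The block changed no other count of adjusted calls in the set. With the arrays numbered 3 left out, the F test called 1 gene of the set, and for the deleted receptor against empty vector 4 list genes and 55 of all genes were called. After median subtraction the F test called 1 gene of the set. With the compared arrays only, 3 list genes and 67 of all genes were called for the full-length receptor and 20 of all genes for the deleted receptor, each against empty vector. With the brighter genes only, which kept 12 of the 31 genes, 187 of all genes were called for the full-length receptor and 2 list genes for the deleted receptor.

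Leaving out 1 array gave 1 to 2 genes of the set called by the F test, 1 to 2 for the full-length receptor, 1 to 1 for the deleted receptor and 0 to 0 between the receptors. For list genes the ranges were 2 to 6, 0 to 3 and 0 to 0, and for all genes 57 to 114, 17 to 34 and 0 to 1. The arrays carry no measure of signal over background, so 7 dim genes cannot be told from absent ones.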
